A study of Mus musculus with 9 samples.

Results

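The 41 genes described here encode the machinery that copies DNA, from the recognition of replication origins to the joining of new strands and the supply of deoxynucleotides. They were taken by gene symbol from a list of replication factors, and no measured value served as a criterion. Earlier results of these data were known, however, when the genes and the tests were chosen. Each of the 41 symbols matched exactly 1 of the 56691 genes in the count tables. All 41 passed the filter on low counts, which left 16903 genes for testing. They were grouped by function into 9 roles of 2 to 6 genes.

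In each cell cycle, the origin recognition complex (ORC) binds origins and, with CDC6 and CDT1, loads the ring-shaped MCM2-7 helicase, a step called licensing that geminin blocks outside G1. In S phase, CDC45 and the GINS complex bind MCM2-7 and turn it into the active CMG helicase. Polymerase alpha with its primase starts each strand, polymerases delta and epsilon extend it with the sliding clamp PCNA, the clamp loader RFC places PCNA on DNA, RPA covers the exposed single strands, and FEN1 and DNA ligase 1 seal the lagging strand. Many of these genes are transcribed at the transition from G1 to S under the control of E2F factors. Pluripotent stem cells (PSCs) and their early progeny divide fast with a short G1, and migrating primordial germ cells (PGCs) proliferate as well.

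NRF1 (nuclear respiratory factor 1) binds promoters of many nuclear genes for respiratory chain subunits, and the study asked what its enforced expression changes in PGC-like cells and in the cells around them. The cells came from mouse BVSC PSCs, a line that reports Blimp1 with mVenus (BV) and Stella with CFP, and they were grown into embryoid bodies and sorted on BV into BV+ and BV− cells. The 4 groups of RNA-seq libraries were BV+ cells carrying an inducible vector with mouse Nrf1 cDNA (NRF1 OE, n = 2), BV+ cells carrying the empty vector (Ctrl, n = 2), BV− cells with NRF1 OE (n = 3) and BV− cells with Ctrl (n = 2). Doxycycline at 1.5 μg/mL was given to all groups from day 2 to day 5 of differentiation, so it is shared by the controls. All groups derive from the same reporter line, the age of the cells at sorting is given for BV+ cells only, and nothing ties libraries of the same number to a shared culture. P-values therefore measure the spread between these libraries, part of which may be technical.

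Total counts ranged from 13702162 to 19625460 per library, and the 41 replication genes held between 0.844% and 1.07% of them. The lowest count of any of the 41 genes in any library was 238, for Gins3, so counting error was small for all of them. Nrf1 itself stood at 119, 122 and 126 CPM (counts scaled to the total of the library) in BV− NRF1 OE and at 99.1 and 105 in BV− Ctrl, and at 95.7 and 99.4 in BV+ NRF1 OE and 91.1 and 90.4 in BV+ Ctrl. Each NRF1 OE library was above the Ctrl libraries of its population, but the difference did not pass edgeR's test in BV− (log2 fold change 0.26 ± 0.095 SE, adjusted p = 0.0718) or in BV+ cells (0.10 ± 0.10, adjusted p = 0.489). Between the populations, edgeR called Nrf1 lower in BV+ than in BV− cells at NRF1 OE (-0.33 ± 0.095, adjusted p = 0.0431). At Ctrl it was not called (-0.17 ± 0.10, adjusted p = 0.819). In these libraries, markers of PGCs did not separate the sorted populations in the direction of their labels: Prdm1, which encodes the BLIMP1 of the reporter, lay between 53.3 and 62.8 CPM in BV+ libraries and between 42.4 and 62.0 CPM in BV− libraries, and Dppa3, Nanos3 and Tfap2c were lower in BV+ than in BV− cells at NRF1 OE by edgeR (log2 differences of -0.65, -1.04 and -0.43). The pluripotency gene Pou5f1 was high in all libraries, at 798 to 1336 CPM, but not equal between the populations. With NRF1 OE it stood at 841 and 905 CPM in BV+ and at 1113, 1298 and 1336 CPM in BV− libraries. Of 5 pluripotency markers, edgeR called 2 lower and 0 higher in BV+ than in BV− cells at NRF1 OE. Of all genes, 3.85% were lower and 9.90% higher. The summed level of 7 PGC markers was 347 to 365 CPM in BV+ and 373 to 525 CPM in BV− libraries, while that of 5 neuroectoderm markers was 75.7 to 182 CPM in BV+ and 40.0 to 62.0 CPM in BV− libraries. The 4 of 6 mesoderm markers that passed the filter summed to 15.7 to 34.2 CPM in BV+ and 4.71 to 11.1 CPM in BV− libraries, and 2 of them, Kdr and Hand1, were higher in BV+ than in BV− cells at NRF1 OE (log2 differences of 3.73 and 4.11 by edgeR, adjusted p = 3.54e-06 and 0.000323). Pdgfra, which also passed, had similar ranges, at 2.94 to 8.13 CPM in BV+ and 2.73 to 7.88 CPM in BV− libraries. Mixl1 and Mesp1 were near 0, with at most 8 counts in a library. Of the 5 neuroectoderm markers, 2 were called higher in BV+ at NRF1 OE by edgeR. Nes had the widest contrast, at 26.4 to 105 CPM in BV+ and 4.85 to 11.3 CPM in BV− libraries. Pax6 and Map2 differed little, at 11.3 to 14.2 and 4.79 to 6.61 CPM in BV+ and 9.09 to 10.5 and 3.55 to 5.87 CPM in BV−. The populations are therefore called BV+ and BV− below, without a cell type.

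The replication genes covered a wide range of transcript levels, which can be compared between genes only per length, as deposited FPKM. MCM2-7 subunits filled the first 5 places and the eighth of the order: the mean over the 9 libraries was 203 FPKM for Mcm5, 187 for Mcm7, 165 for Mcm3, 146 for Mcm2, 119.6 for Mcm6 and 91.2 for Mcm4. Between Mcm6 and Mcm4 stood Rrm2, the small subunit of ribonucleotide reductase, at 104 FPKM and Pcna at 95.3 FPKM, and Cdt1 and Lig1 followed at 90.7 and 89.3 FPKM. Ranges over libraries of neighbours overlapped throughout the order, for example 154 to 303 FPKM for Mcm5 and 158 to 237 FPKM for Mcm7. At the other end were Fen1 at 9.72 FPKM, Gins3 at 7.63, Prim2 at 7.46 and Orc4 at 6.30, with 3.81 to 8.23 FPKM for Orc4 over libraries. Pcna has a processed copy, Pcna-ps2, that was itself counted with up to 1709 reads in a library, so the split of reads between both is uncertain.

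**Figure D1:**
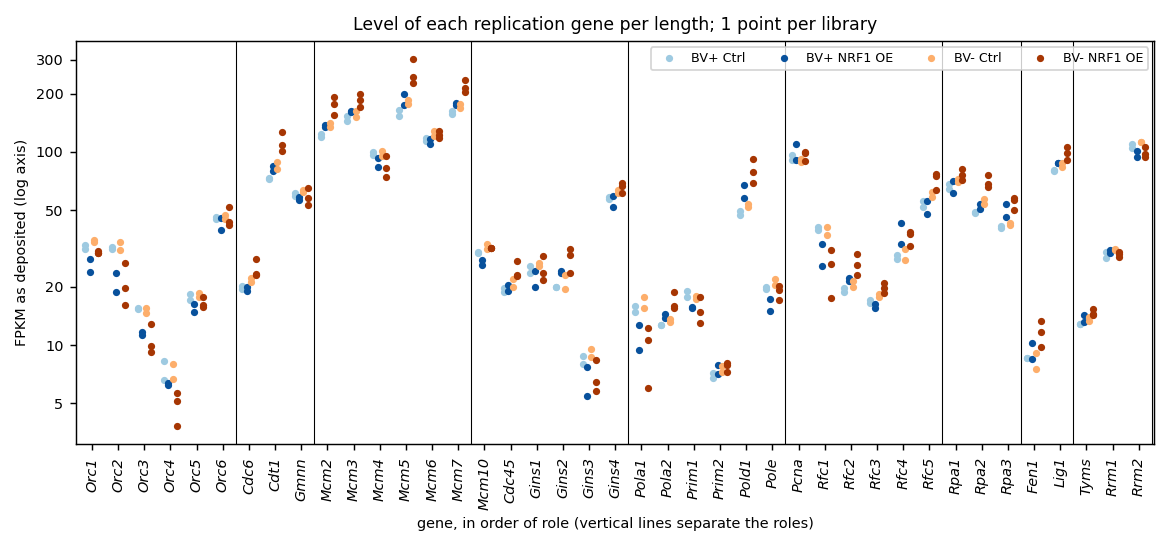
Deposited FPKM of each of the 41 replication genes, on a log axis, with 1 point per library and the 4 groups in colour; genes stand in order of role. Mcm5 has the highest mean, with points between 154 and 303 FPKM, and Orc4 the lowest, with points between 3.81 and 8.23 FPKM.

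With NRF1 OE, replication genes moved in both directions in BV− cells. The fitted log2 fold changes of the 41 genes ran from -0.75 to 0.64. In BV− cells, 10 of the 41 genes rose, against 10.2% of all genes tested, and 4 fell, against 6.98% of all genes (edgeR, adjusted p under 0.05). The genes that rose were Pold1, Mcm5, Gins2, Cdt1, Rpa3, Rpa2, Mcm2, Mcm7, Rfc2 and Pola2, and those that fell were Pola1, Orc2, Orc4 and Orc3. The median over the 41 genes was 0.14 on the log2 scale, beside 0.0092 over all genes tested. At the study's own threshold, an unadjusted p under 0.05 with a log2 fold change above 0.58 in size, 4 of the 41 genes were called, Pold1 upwards and Pola1, Orc2 and Rfc1 downwards, against 16.0% of all genes; Rfc1 lay just outside the adjusted threshold (adjusted p = 0.0524). Every NRF1 OE library was above every Ctrl library for 20 of the 41 genes, against 29.4% of all genes, and below for 8, against 27.6%. In bulk RNA, a different share of cells in S phase and a different amount of these RNAs per cell cannot be told apart.

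In BV+ cells, 0 of the 41 replication genes passed the adjusted threshold with NRF1 OE by edgeR or by DESeq2. By edgeR, 6.24% of all genes rose and 1.78% fell, and DESeq2 called 12.6% of all genes. At an unadjusted p under 0.05, 3 of the 41 lay higher (Rfc4, Pold1 and Rpa3), against 20.3% of all genes, and 3 lower (Orc2, Orc3 and Orc1), against 12.1%. The study's threshold called 0 of the 41, against 17.0% of all genes. The median was 0.020 on the log2 scale, beside 0.036 over all genes, and its sign turned with library size alone (-0.019) and with upper-quartile scaling (-0.014). Both NRF1 OE libraries were above both Ctrl libraries for 17 genes, against 38.1% of all genes, and below for 13, against 32.0%. The difference between the NRF1 OE effects in BV+ and BV− cells, tested as an interaction, was called for 0 of the 41 genes by edgeR, for 0 at an unadjusted p under 0.05, against 5.51% of all genes, and for 0 by DESeq2. Of all genes, edgeR called 0% and DESeq2 29 genes. The 95% intervals of these differences reached from -0.86 to 1.08 on the log2 scale over the 41 genes, so the effects were not shown to be alike either.

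The calls in BV− cells depended on single libraries. The count of 14 fell to 0 without BV− NRF1 OE library 3, without either BV+ Ctrl library or without either BV− Ctrl library, and to 9 without BV− NRF1 OE library 2 or without either BV+ NRF1 OE library; it was 21 without BV− NRF1 OE library 1. The calls over all genes moved with it: they numbered 0 to 35 in the fits with a count of 0, and made up 14.3% to 14.6% of all genes in those with 9 and 34.6% in the one with 21. In BV+ cells, the count of 0 became 1 without BV+ NRF1 OE library 2, 3 without BV− NRF1 OE library 1 and 7 without BV− NRF1 OE library 2, where 11.5%, 14.0% and 29.4% of all genes were called. The BV− libraries enter that comparison through the shared estimate of the spread, and through the filter and scaling, which were set anew in each fit. Without BV− NRF1 OE library 2, the BV+ median over all genes went from 0.036 to 0.013. With library size in place of trimmed-mean scaling, the BV− split of 10 up and 4 down became 7 up and 5 down.

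**Figure D2:**
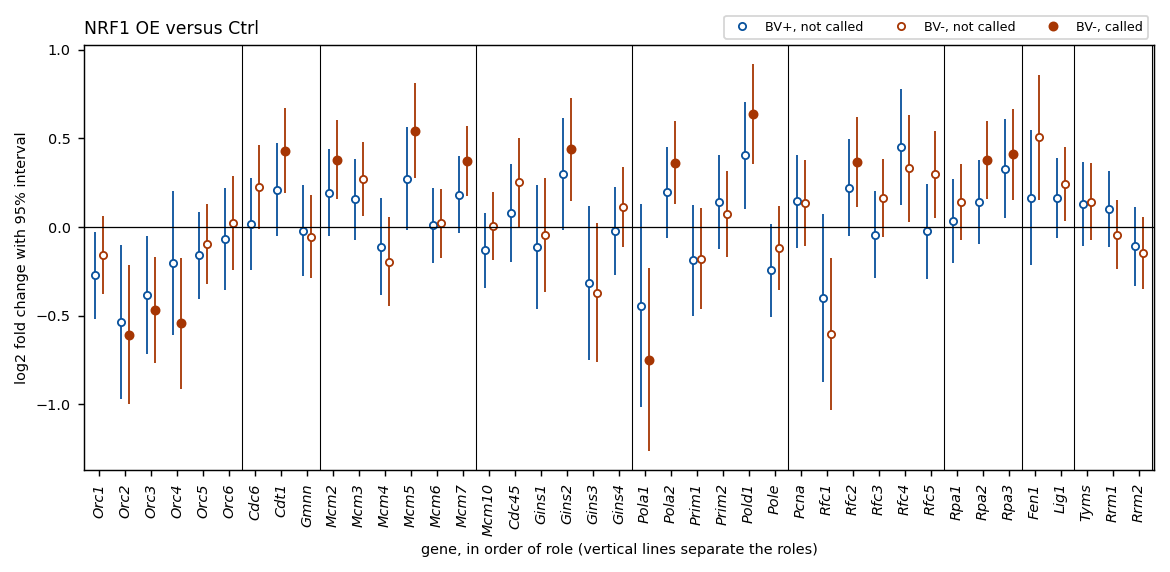
Log2 fold change of NRF1 OE over Ctrl for each replication gene in BV+ (blue) and BV− cells (red), with 95% intervals and genes in order of role; filled points have an edgeR adjusted p under 0.05. The 14 filled points all belong to BV− cells, and they range from -0.75 for Pola1 to 0.64 for Pold1.

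GC content moved with these differences and is given here because it touches each of them. Within a library, a gene's deviation from its mean over the 9 libraries was correlated with the GC content of its transcript: Spearman's rho over 16662 genes was between -0.51 and -0.40 in the 4 Ctrl libraries, 0.282 and 0.0237 in the BV+ NRF1 OE libraries, and 0.0294, 0.621 and 0.468 in the BV− NRF1 OE libraries 1, 2 and 3. Across the 41 replication genes, which share these libraries, the log2 fold change with NRF1 OE was likewise correlated with GC content in BV− (rho = 0.63) and in BV+ cells (rho = 0.48), as it was across all genes (0.62 and 0.48). In BV− cells, the 10 genes that rose had a median GC content of 51.8%, from 34.2% for Rpa3 to 61.0% for Pold1, and the 4 that fell had 36.8% to 44.4%. When the fit held offsets that follow GC content and transcript length in each library, 8 of the 41 genes rose in BV− cells, against 4.41% of all genes, and none of the 4 that had fallen was called, where 1.94% of all genes were lower. Of the 10 genes that had risen, Mcm5, Pola2, Pold1, Rfc2 and Rpa3 were still called, at 0.39, 0.48, 0.27, 0.39 and 0.84, and Rfc3, Rfc4 and Rrm1 were called besides, at 0.47, 0.55 and 0.40. The median of the 41 genes was then 0.19, beside -0.0040 over all genes. In BV+ cells the same fit called 2 of the 41, Rfc4 at 0.59 and Rpa3 at 0.57, both upwards, against 6.99% of all genes. Across the 41 genes, rho of the fold change with GC content in that fit was -0.06 in BV− and -0.30 in BV+ cells. The part of GC content in the remaining differences was not tested.

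**Figure D3:**
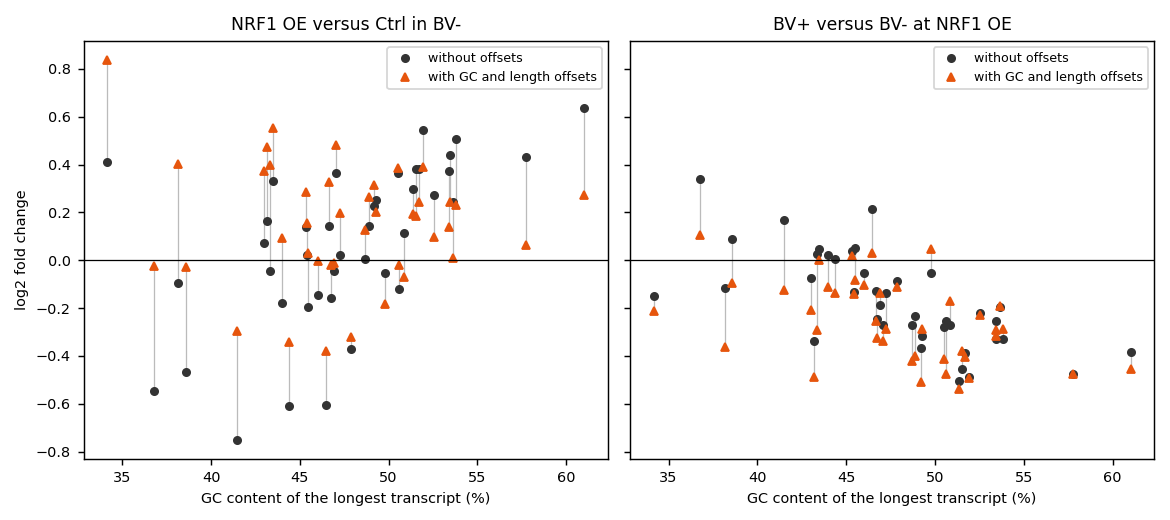
Log2 fold change of each replication gene against the GC content of its longest transcript, without (black circles) and with (orange triangles) offsets that follow GC content and transcript length in each library, for NRF1 OE versus Ctrl in BV− cells (left) and for BV+ versus BV− cells at NRF1 OE (right); grey lines join the values of a gene. On the left the offsets moved Orc3 and Orc4 from -0.47 and -0.54 to -0.03 each, and on the right most genes stayed below 0 with either fit.

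Promoters bear on the question of a direct effect of NRF1, so the region from 250 bases before to 50 bases after the transcription start was searched in RefSeq sequences of build GRCm38.p6, which held an entry for 33 of the 41 genes. There was none for Mcm4, Gmnn, Gins1, Gins2, Gins4, Rfc2, Pole and Prim2. The letters searched on both strands were the NRF1 core CGCATGCG and the E2F motifs TTTCCCGC and TTTGGCGC, none of which contains another. The NRF1 core was found in 1 of the 33 genes (3.03%), Cdt1, beside 2.07% of 27025 genes with an entry. An E2F motif was found in 11 of the 33 (33.3%), beside 1.8% of all genes; these were Mcm3, Mcm5, Mcm6, Mcm7, Cdc6, Cdt1, Gins3, Orc3, Rfc3, Pola1 and Pold1. Such a match is a string of letters and not a measured binding site. Only these exact letters were searched, so the lack of a match does not show that a site is absent. Printed below is Cdt1 as the carrier of the NRF1 core, together with the genes of the largest rises, Pold1 and Mcm5, and of the largest fall, Pola1, which were chosen after their values were seen; capitals mark the motifs. Cdt1 lies at chr8:122567765-122568064 on the plus strand with the NRF1 core 111 bases before the start, Mcm5 at chr8:75109259-75109558 on the plus strand, Pold1 at chr7:44548766-44549065 on the minus strand and Pola1 at chrX:93632106-93632405 on the minus strand.
Cdt1: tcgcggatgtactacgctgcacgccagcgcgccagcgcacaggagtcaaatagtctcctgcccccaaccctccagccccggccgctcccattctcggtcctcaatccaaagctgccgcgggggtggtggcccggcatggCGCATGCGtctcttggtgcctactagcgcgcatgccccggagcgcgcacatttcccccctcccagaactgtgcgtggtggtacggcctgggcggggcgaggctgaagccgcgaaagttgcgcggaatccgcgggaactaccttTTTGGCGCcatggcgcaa
Mcm5: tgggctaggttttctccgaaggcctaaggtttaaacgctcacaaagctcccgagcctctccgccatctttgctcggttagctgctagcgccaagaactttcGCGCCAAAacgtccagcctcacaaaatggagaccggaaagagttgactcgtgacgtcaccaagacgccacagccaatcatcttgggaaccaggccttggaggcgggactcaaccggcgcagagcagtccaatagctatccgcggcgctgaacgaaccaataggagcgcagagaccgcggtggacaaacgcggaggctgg
Pold1: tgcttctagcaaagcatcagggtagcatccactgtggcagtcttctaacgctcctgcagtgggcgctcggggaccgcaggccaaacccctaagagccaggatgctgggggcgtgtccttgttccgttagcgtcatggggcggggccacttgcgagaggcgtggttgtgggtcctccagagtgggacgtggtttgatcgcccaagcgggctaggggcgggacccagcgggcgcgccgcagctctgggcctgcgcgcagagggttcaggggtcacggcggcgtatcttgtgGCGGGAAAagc
Pola1: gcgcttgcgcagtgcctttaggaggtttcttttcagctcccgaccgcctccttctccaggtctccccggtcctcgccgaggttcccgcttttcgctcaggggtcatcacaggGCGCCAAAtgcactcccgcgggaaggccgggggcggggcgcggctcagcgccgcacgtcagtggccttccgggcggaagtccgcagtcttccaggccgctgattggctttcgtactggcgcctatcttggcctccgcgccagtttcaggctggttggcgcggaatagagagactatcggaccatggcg
Genes with an E2F motif in these windows stood on both sides with NRF1 OE in BV− cells. Of the 11, 4 (Cdt1, Mcm5, Mcm7 and Pold1) were called higher, against 10.2% of all genes. Another 2 (Pola1 and Orc3) were called lower, against 6.98%, and 5 in neither direction. Of all 41 replication genes, 10 were called higher and 4 lower. Whether the motif bears on these calls was not tested.

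Of the 6 ORC subunits, which mark the origins, 3 fell with NRF1 OE in BV− cells. Orc2 stood at 105, 62.5 and 78.3 CPM in BV− NRF1 OE, 131 and 119 in BV− Ctrl, 73.6 and 91.1 in BV+ NRF1 OE, and 118 and 121 in BV+ Ctrl. For Orc3 the values were 80.1, 56.4 and 62.0 CPM in BV− NRF1 OE, 93.8 and 89.5 in BV− Ctrl, 69.7 and 71.2 in BV+ NRF1 OE, and 91.7 and 92.3 in BV+ Ctrl. In both genes every NRF1 OE library lay below every Ctrl library, with BV− NRF1 OE library 2 the lowest and library 1 closest to the controls. Orc4 stood at 43.2, 28.7 and 39.4 CPM in BV− NRF1 OE, 59.0 and 49.5 in BV− Ctrl, 48.0 and 46.2 in BV+ NRF1 OE, and 48.4 and 59.9 in BV+ Ctrl. Its BV+ groups nearly touched, whereas its BV− groups were apart. The log2 fold changes in BV− cells were -0.61 ± 0.18 SE for Orc2 (adjusted p = 0.0435), -0.47 ± 0.14 for Orc3 (adjusted p = 0.0429) and -0.54 ± 0.17 for Orc4 (adjusted p = 0.0480). In BV+ cells they were -0.54 ± 0.20 (adjusted p = 0.0979), -0.38 ± 0.15 (adjusted p = 0.112) and -0.20 ± 0.19 (adjusted p = 0.453). These 3 genes have 44.4%, 38.6% and 36.8% GC, and with the GC and length offsets their BV− values became -0.34, -0.03 and -0.03 and none of them was called. About 29.8% of the exonic bases of Orc2 overlap Nif3l1 on the opposite strand, and whether the counting used the strand is not stated, so its counts are uncertain. Orc1, Orc5 and Orc6 were not called in BV− cells, with -0.16, -0.10 and 0.02. The summed ORC level was 576, 458 and 501 CPM in BV− NRF1 OE against 625 and 605 in BV− Ctrl, and 481 and 502 CPM in BV+ NRF1 OE against 592 and 592 in BV+ Ctrl.

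Among the licensing factors, Cdt1, which brings MCM2-7 to ORC, rose with NRF1 OE in BV− cells. Its level was 323, 402 and 353 CPM in BV− NRF1 OE, 254 and 279 in BV− Ctrl, 268 and 249 in BV+ NRF1 OE, and 225 and 222 in BV+ Ctrl. The NRF1 OE libraries lay above the Ctrl libraries of their population, and the 3 BV− NRF1 OE libraries above all others. The log2 fold change was 0.43 ± 0.11 SE in BV− (adjusted p = 0.0351) and 0.21 ± 0.12 in BV+ cells (adjusted p = 0.237). Cdt1 has 57.8% GC, and with the offsets its values were 0.06 in BV− and -0.14 in BV+ cells, neither of them called. Cdc6, the ATPase that works with CDT1, stood at 124, 148 and 125 CPM in BV− NRF1 OE, 109.8 and 116 in BV− Ctrl, 101 and 104 in BV+ NRF1 OE, and 99.6 and 103 in BV+ Ctrl. It did not pass the test for NRF1 OE in BV− cells (0.23 ± 0.11, adjusted p = 0.146). Gmnn, which encodes geminin, had a value of -0.05 in BV− cells and was not called (adjusted p = 0.739).

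In the MCM2-7 helicase, 3 of the 6 subunits rose in BV− cells with NRF1 OE. Mcm5 stood at 926, 1219.6 and 1007 CPM in BV− NRF1 OE, 702 and 739 in BV− Ctrl, 803 and 696 in BV+ NRF1 OE, and 640.3 and 601 in BV+ Ctrl. Mcm2 stood at 1096, 1356 and 1276 CPM in BV− NRF1 OE, 929 and 981 in BV− Ctrl, 966 and 932 in BV+ NRF1 OE, and 842 and 816 in BV+ Ctrl. The same order held for Mcm7, with 927, 1059 and 981 CPM in BV− NRF1 OE, 742 and 785 in BV− Ctrl, 788 and 787 in BV+ NRF1 OE, and 705 and 683 in BV+ Ctrl. In all 3 genes the BV− NRF1 OE libraries were the highest of the series, with library 2 on top, and the BV+ Ctrl libraries the lowest. The log2 fold changes in BV− cells were 0.54 ± 0.12 SE for Mcm5 (adjusted p = 0.0317), 0.38 ± 0.10 for Mcm2 (adjusted p = 0.0374) and 0.37 ± 0.091 for Mcm7 (adjusted p = 0.0332). In BV+ cells they were 0.27 ± 0.13, 0.19 ± 0.11 and 0.18 ± 0.099 with adjusted p-values of 0.176, 0.236 and 0.215. With the offsets, Mcm5 was still called in BV− cells, while Mcm2 and Mcm7 were not, at 0.24 (adjusted p = 0.0523) and 0.14 (adjusted p = 0.169). The other subunits of the ring were not called: Mcm3 had 0.27 (adjusted p = 0.0637), Mcm6 had 0.02 and Mcm4 had -0.19. The summed level of the 6 subunits was 4559, 5235 and 4854 CPM in BV− NRF1 OE, 3857 and 4049 in BV− Ctrl, 3997 and 3889.5 in BV+ NRF1 OE, and 3637 and 3483 in BV+ Ctrl.

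**Figure D4:**
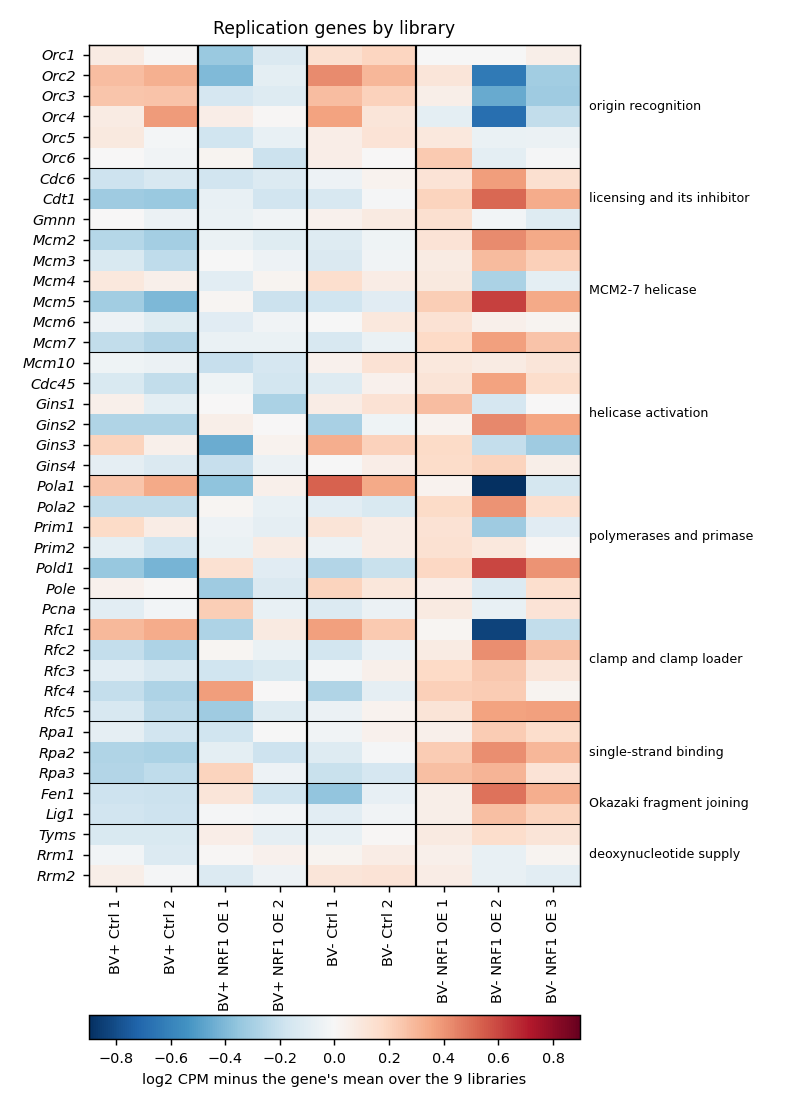
Log2 CPM of each replication gene in each library, minus the gene's mean over the 9 libraries, with genes in order of role and libraries in groups; red is above and blue below the mean. BV− NRF1 OE library 2 holds the most extreme values, with Pola1, Rfc1 and Orc4 lowest and Mcm5 and Pold1 highest.

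The factors that convert MCM2-7 into the moving helicase gave 1 call. Gins2, a subunit of GINS, stood at 99.0, 130.4 and 124 CPM in BV− NRF1 OE, 79.2 and 94.3 in BV− Ctrl, 101 and 96.8 in BV+ NRF1 OE, and 80.2 and 80.0 in BV+ Ctrl. Its log2 fold change was 0.44 ± 0.13 SE in BV− (adjusted p = 0.0451) and 0.30 ± 0.14 in BV+ cells (adjusted p = 0.170). However, 67.3% of the exonic bases of Gins2 overlap Gse1 on the opposite strand, so reads of both genes may be mixed, and with the offsets Gins2 was not called (0.24, adjusted p = 0.102). Its partners in GINS did not share its value in BV− cells: Gins1 had -0.05, Gins3 -0.37 and Gins4 0.11, and none of these was called. Cdc45, which binds MCM2-7 together with GINS, had 0.25 (adjusted p = 0.129), and Mcm10, which helps to start the helicase, had 0.01.

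Polymerase genes held both the largest rise and the largest fall among the replication genes called. Pold1, the catalytic subunit of polymerase delta, stood at 341, 454 and 395 CPM in BV− NRF1 OE, 249 and 260.3 in BV− Ctrl, 329.6 and 279 in BV+ NRF1 OE, and 236 and 224 in BV+ Ctrl. All NRF1 OE libraries lay above all Ctrl libraries in this gene, whichever population is taken. The log2 fold change was 0.64 ± 0.13 SE in BV− (adjusted p = 0.0317) and 0.41 ± 0.14 in BV+ cells (adjusted p = 0.0814). Pold1 has the highest GC content of the 41 genes, and with the offsets the values were 0.27 in BV− (adjusted p = 0.0351) and 0.02 in BV+ cells (adjusted p = 0.883). Pola1, the catalytic subunit of polymerase alpha, stood at 110.2, 53.5 and 96.7 CPM in BV− NRF1 OE, 156 and 137 in BV− Ctrl, 83.8 and 111 in BV+ NRF1 OE, and 128 and 137 in BV+ Ctrl. Here all NRF1 OE libraries lay below all Ctrl libraries, and BV− NRF1 OE library 2 lay far below the other NRF1 OE libraries. The log2 fold change of Pola1 was -0.75 ± 0.23 SE in BV− (adjusted p = 0.0495) and -0.44 ± 0.26 in BV+ cells (adjusted p = 0.248), and the BV− value was -0.53 without BV− NRF1 OE library 2. With the offsets it was -0.29 and not called. Pola2, the regulatory subunit of the same enzyme, moved the other way: it stood at 135, 158 and 133 CPM in BV− NRF1 OE, 112 and 109 in BV− Ctrl, 121 and 114 in BV+ NRF1 OE, and 103 and 103 in BV+ Ctrl. Its rise in BV− cells was 0.36 ± 0.11 SE (adjusted p = 0.0435) and 0.48 with the offsets. In the other subunits the BV− values were -0.12 for Pole, -0.18 for Prim1 and 0.07 for Prim2, none of them called.

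The clamp and its loader had only 1 call, Rfc2, a small RFC subunit. Rfc2 stood at 148, 188 and 169 CPM in BV− NRF1 OE, 126 and 136 in BV− Ctrl, 142 and 135 in BV+ NRF1 OE, and 121 and 116 in BV+ Ctrl. The groups of each population were apart, and the rise was 0.37 ± 0.12 SE in BV− cells (adjusted p = 0.0496), against 0.22 ± 0.13 in BV+ cells (adjusted p = 0.231). Rfc1, the large subunit, ran against it without passing the threshold, with 192, 107 and 163 CPM in BV− NRF1 OE and 245 and 223 in BV− Ctrl, or -0.61 ± 0.20 SE. Rfc4 had the smallest p of the 41 genes in BV+ cells, at 66.3 and 51.0 CPM in NRF1 OE against 43.8 and 42.0 in Ctrl (0.45 ± 0.15, adjusted p = 0.0762), and in BV− cells it stood at 59.0, 59.7 and 51.7 against 42.1 and 48.2 (0.33 ± 0.14, adjusted p = 0.0999). All NRF1 OE libraries were above all Ctrl libraries in Rfc4, and it was called with the offsets in both populations. Pcna showed no such separation, with 209.7 to 249 CPM in BV− libraries and 214 to 267 CPM in BV+ libraries.

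Of the 3 RPA subunits, which coat single-stranded DNA, Rpa2 and Rpa3 rose in BV− cells with NRF1 OE. Rpa2 stood at 202, 230.4 and 212 CPM in BV− NRF1 OE, 159 and 171 in BV− Ctrl, 162 and 151 in BV+ NRF1 OE, and 143 and 141 in BV+ Ctrl. Rpa3 stood at 65.1, 66.6 and 58.7 CPM in BV− NRF1 OE, 46.9 and 48.5 in BV− Ctrl, 62.1 and 52.3 in BV+ NRF1 OE, and 45.0 and 45.9 in BV+ Ctrl. In Rpa3 each NRF1 OE library of either population was above each Ctrl library, whereas in Rpa2 the BV+ NRF1 OE libraries fell within the range of the BV− Ctrl libraries or below it. The log2 fold changes in BV− cells were 0.38 ± 0.10 SE for Rpa2 (adjusted p = 0.0358) and 0.41 ± 0.12 for Rpa3 (adjusted p = 0.0406), and in BV+ cells 0.14 ± 0.11 (adjusted p = 0.372) and 0.33 ± 0.13 (adjusted p = 0.107). Rpa3 has the lowest GC content of the 41 genes and the shortest transcript, at 682 bases. With the offsets its values were larger, 0.84 in BV− and 0.57 in BV+ cells, both called. Whether the offsets hold for a gene this far out was not tested. Rpa2 was not called with them (0.19, adjusted p = 0.0978). Rpa1, the large subunit, had 0.14 in BV− cells (adjusted p = 0.308).

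Neither gene for the joining of Okazaki fragments passed the adjusted threshold. Fen1, the flap endonuclease, stood at 24.1, 32.7 and 29.1 CPM in BV− NRF1 OE and 18.2 and 22.1 in BV− Ctrl (0.51 ± 0.16 SE, adjusted p = 0.0508), but 84.2% of its exonic bases overlap Tmem258 and Gm10143 on the opposite strand, so its counts are uncertain. Lig1, the ligase, stood at 390.3, 453 and 433 CPM in BV− NRF1 OE and 352 and 368 in BV− Ctrl (0.24 ± 0.095, adjusted p = 0.0862), and at 374 and 369.7 in BV+ NRF1 OE and 334 and 330.2 in BV+ Ctrl (0.16 ± 0.10, adjusted p = 0.281). The groups of Lig1 were apart in both populations. The genes of deoxynucleotide supply showed small differences: in BV− cells Tyms, the thymidylate synthase, had 0.14, Rrm1 -0.04 and Rrm2 -0.15, and in BV+ cells they had 0.13, 0.10 and -0.11, none of them called.

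In the comparison of the sorted populations, replication genes were mostly lower in BV+ than in BV− cells. At Ctrl, 35 of the 41 genes had a negative log2 difference, with a median of -0.12, beside -0.0098 over all genes, and both BV+ libraries lay below both BV− libraries for 29 of the 41 genes, against 25.4% of all genes. Yet 0 of the 41 were called by edgeR, where 1.10% of all genes were higher and 0.0237% lower. An unadjusted p under 0.05 was found for 0, against 7.77% of all genes, and DESeq2 called 0, against 1.81%. The largest such difference, in Cdt1, was -0.25 ± 0.12 SE (adjusted p = 0.669). At NRF1 OE, 8 of the 41 genes were lower in BV+ cells, against 3.85% of all genes, and 0 were higher, against 9.90%. DESeq2 called 0 of the 41 genes higher, against 1660 of the 16903 genes tested. At an unadjusted p under 0.05, 18 of the 41 were lower, against 12.3% of all genes, and 0 higher, against 15.9%. The median was -0.19, beside -0.0049 over all genes, 31 of the 41 had a negative value, and both BV+ libraries lay below all 3 BV− libraries for 22 genes, against 19.5% of all genes. This comparison uses the same BV− NRF1 OE libraries as the comparison of NRF1 OE with Ctrl in BV− cells, so the calls of both share those libraries.

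The 8 genes lower in BV+ cells at NRF1 OE were Rfc5, Mcm5, Cdt1, Rpa2, Mcm2, Cdc6, Rfc3 and Mcm7. Rfc5, a small subunit of the clamp loader, stood at 224 and 259 CPM in BV+ NRF1 OE against 304, 360.5 and 363 in BV− NRF1 OE, and at 254 and 237 in BV+ Ctrl against 270.0 and 288 in BV− Ctrl. The difference at NRF1 OE was -0.50 ± 0.11 SE (adjusted p = 0.0124) and at Ctrl -0.18 ± 0.12 (adjusted p = 0.863). Rfc3, another small subunit, stood at 56.6 and 58.4 CPM in BV+ NRF1 OE against 72.7, 76.2 and 69.2 in BV− NRF1 OE, and at 60.2 and 58.3 in BV+ Ctrl against 63.4 and 66.4 in BV− Ctrl, a difference of -0.34 ± 0.10 at NRF1 OE (adjusted p = 0.0485). In both genes the BV+ libraries were lower in either condition, and the gap was wider with NRF1 OE, although the interaction was not called for either. From the values given above, the differences at NRF1 OE were -0.49 ± 0.12 for Mcm5 (adjusted p = 0.0225), -0.47 ± 0.11 for Cdt1 (adjusted p = 0.0153) and -0.46 ± 0.10 for Rpa2 (adjusted p = 0.0114). They were -0.39 ± 0.10 for Mcm2 (adjusted p = 0.0280), -0.37 ± 0.11 for Cdc6 (adjusted p = 0.0462) and -0.33 ± 0.091 for Mcm7 (adjusted p = 0.0341). Licensing factors and MCM2-7 subunits made up 5 of the 8 genes. They were 2 of the 3 genes of licensing and its inhibitor and 3 of the 6 MCM2-7 subunits. The others were 2 of the 6 clamp and clamp loader genes and 1 of the 3 single-strand binding genes. Of all genes, 3.85% were lower.

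The count of 8 fell to 0 without BV+ NRF1 OE library 1 or BV− NRF1 OE library 3, to 1 without BV+ NRF1 OE library 2, to 4 without BV− NRF1 OE library 2 or either BV+ Ctrl library, and to 5 and 3 without BV− Ctrl library 1 and 2; it was 12 without BV− NRF1 OE library 1. Of all genes, 4.46% and 8.97% were called in the fits with a count of 0, 9.58% to 14.8% in those with 1 to 5, and 18.8% in the one with 12. With the GC and length offsets it grew to 21 of the 41 genes, all lower in BV+ cells and the 8 among them, against 14.8% of all genes. Orc1, Pole, Pold1, Pola2, Rpa1 and Mcm10 were then among those lower, at -0.32, -0.47, -0.45, -0.34, -0.40 and -0.42, and 36 of the 41 genes had a negative value with a median of -0.29. The median over all genes was also lower in that fit, at -0.088. At Ctrl the offsets left 0 genes called, 38 of 41 negative and a median of -0.15, beside -0.046 over all genes. GC content was correlated with the difference at NRF1 OE across the 41 genes, at rho = -0.73 without and -0.48 with the offsets, beside -0.23 across all genes without them. The part of GC content in this difference was not tested. The lower Nrf1 level in BV+ cells at NRF1 OE was not tested for its part either. The same holds for those mesoderm, neuroectoderm, pluripotency and PGC markers that differ between BV+ and BV− libraries as given above.

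**Figure D5:**
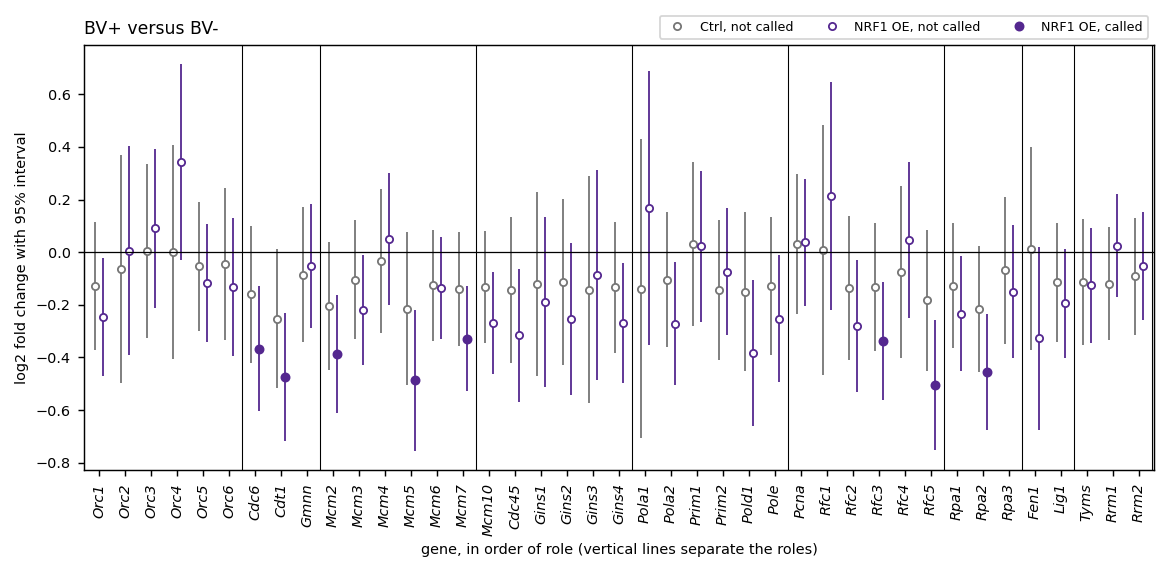
Log2 difference of BV+ minus BV− cells for each replication gene at Ctrl (grey) and at NRF1 OE (purple), with 95% intervals and genes in order of role; filled points have an edgeR adjusted p under 0.05. Most points lie below 0 in both conditions, and the 8 filled points, all at NRF1 OE, range from -0.50 to -0.33.

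Other genes of the pathway, from lists of factors that are no part of the 41, also moved in both directions. Of 32 further replication factors, 6 rose and 3 fell with NRF1 OE in BV− cells, beside the 10.2% and 6.98% of all genes given above. The largest rises were those of Rnaseh2c, a subunit of the RNase H2 that removes ribonucleotides, at 0.68 ± 0.16 SE (adjusted p = 0.0317), Lrwd1, an ORC-associated protein, at 0.59 ± 0.12 (adjusted p = 0.0317), and Rnaseh2a at 0.59 ± 0.13 (adjusted p = 0.0317). The falls were those of Atad5, which unloads PCNA, at -0.74 ± 0.22 (adjusted p = 0.0435), Topbp1, which helps to activate the helicase, at -0.69 ± 0.20 (adjusted p = 0.0411), and Dbf4, the activator of the CDC7 kinase, at -0.65 ± 0.16 (adjusted p = 0.0344). BV− NRF1 OE library 2 was the highest of its group in each rise named and the lowest in each fall. Rnaseh2a stood at 133, 175 and 145 CPM in BV− NRF1 OE and Atad5 at 67.7, 34.0 and 62.5 CPM. No values with the offsets are given for these further genes. In BV+ cells only Rnaseh2c was called among the 32, at 0.77 ± 0.17 (adjusted p = 0.0295). Of 8 further genes of deoxynucleotide supply, Dut, the dUTPase, rose in BV− cells (0.34 ± 0.098, adjusted p = 0.0411). Of 13 E2F and RB family genes, E2f1 rose in BV− cells (0.55 ± 0.12, adjusted p = 0.0317) and Rbl1 and E2f3 fell (-0.63 ± 0.17 and -0.34 ± 0.11). E2f1 stood at 77.4, 91.9 and 88.2 CPM in BV− NRF1 OE, 54.9 and 62.3 in BV− Ctrl, 65.1 and 61.9 in BV+ NRF1 OE, and 55.3 and 53.1 in BV+ Ctrl, with the BV− NRF1 OE libraries above all others. At NRF1 OE it was lower in BV+ than in BV− cells (-0.43 ± 0.12, adjusted p = 0.0292), and so were 4 of the 32 further replication factors (beside 3.85% of all genes), led by Asf1b (-0.55 ± 0.11, adjusted p = 0.00739), and Dtymk and Dut of nucleotide supply (-0.37 ± 0.096 and -0.33 ± 0.097).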

How the data were processed

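Poly(A) RNA of 9 libraries was sequenced in paired reads. The authors trimmed the reads with Cutadapt, used HISAT2 2.0.1 for mapping to GRCm39 and HTSeq 0.6.1 for counting per gene, and deposited a raw count and an FPKM value for each of 56691 genes. The authors' FPKM, which divide the counts by gene length and depth, were used here only to compare levels between genes. Whether the counting used strand is not stated. Groups and library numbers came from the sample titles. The titles and source tables give no dates or batches.

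The quasi-likelihood F test of edgeR 4.0.16 (R 4.3.3) was run on the counts; all 9 libraries entered 1 fit that had the 4 groups as its terms, with TMM scaling (factors 0.969 to 1.026) and the filterByExpr filter, which kept 16903 genes. P-values were two-sided and adjusted after Benjamini-Hochberg over these genes, with a threshold of 0.05. CPM are counts scaled to library totals after TMM, and a prior count of 2 was added for log2 CPM. GC content and length of the longest transcript and gene overlaps came from a GRCm38 annotation, matched by identifier for 16662 of the genes tested, and promoters from RefSeq on GRCm38.p6. The deposited tables use another build and hold no coordinates of these promoters.

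Total counts were 13702162 to 19625460 per library. No library duplicated another. The alternatives were no filter, DESeq2's size factors, library size alone, upper-quartile factors, DESeq2 1.42.0, a fit of only the groups compared, offsets for GC content and length (splines with 5 degrees of freedom), the library number as a block, and each library left out in turn. A fit with 1 BV− NRF1 OE library and a crossed block were added after seeing the data. The fits were also run on simulated counts, with no outcome given here. These counts took each gene's mean, the fitted trend of the spread and the GC trend that the offsets model. They therefore cannot show that the fits hold for these libraries. The replication genes, the other lists and the tests were chosen with earlier results of these data known. Named genes are all members called, at most 12 per comparison. In each role, the member with the smallest p for NRF1 OE in each population is named besides. Rfc1, the complete MCM2-7, ORC, GINS and polymerase sets and the printed promoters other than that of Cdt1 were added after their values were seen. Gmnn, Cdc45, Mcm10, Pcna, Rpa1 and Rrm1 are also named with values and were not picked by this rule. Of the other lists, at most 3 genes per comparison are named.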

Additional observations from a re-analysis of the deposited data

How the results depend on the processing

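The numbers of replication genes called with NRF1 OE in BV− cells, in BV+ cells, and for BV+ against BV− cells under NRF1 OE and under Ctrl were 14, 0, 8 and 0. They stayed at 12 to 16, 0, 6 to 8 and 0 with DESeq2's size factors, library size alone, upper-quartile factors or DESeq2. Of all genes, these fits called 18.6% to 24.6%, 5.94% to 12.6%, 13.3% to 13.8% and 1.14% to 1.81%. Without a filter on low counts they were 15, 4, 7 and 0, beside 13.3%, 10.4%, 8.48% and 1.60% of all genes. In a fit of only the groups compared they were 0, 6, 0 and 1, beside 0%, 26.8%, 7.80% and 5.52%. With the GC and length offsets they were 8, 2, 21 and 0, beside 6.34%, 12.5%, 25.8% and 1.71%. In the fit of only the groups compared, 0 of all genes were called in BV− cells and 4371 in BV+ cells by edgeR, and the cause was not tested. Library number 3 occurs only in BV− NRF1 OE, so a block on the number takes that library out of the comparisons. Of all genes, edgeR with such a block called 0, 3, 1064 and 121. The numbers of replication genes called with this block were 0, 0, 0 and 0, and with the replicate block and the offsets 0, 0, 15 and 0. Of all genes, the fit with block and offsets called 0.0120%, 5.58%, 15.7% and 1.17%. With 1 library left out they ranged from 0 to 21 in BV− cells, from 0 to 7 in BV+ cells and from 0 to 12 at NRF1 OE, and stayed 0 at Ctrl. A fit with library 1 as the only BV− NRF1 OE library was chosen after seeing the data and takes its spread from the other groups. No number of replication genes called is therefore given for it. Its median log2 fold change over all genes with NRF1 OE was -0.0045 in BV− and 0.0081 in BV+ cells. The interaction was called by edgeR for 0 of the 41 genes in each fit that could give it. Over all genes it was called for 108 without a filter, 33 without BV− NRF1 OE library 2, 3 with library 1 as the only BV− NRF1 OE library, 1 with the replicate block and offsets, and 0 in the other edgeR fits.

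The median log2 fold change moved by more than the spread between libraries in some fits. In BV+ cells (0.020) it was -0.019 with library size alone, -0.014 with upper-quartile factors, -0.025 with only the groups compared, and -0.0091 to 0.068 with 1 library left out. In BV− cells (0.14) it was 0.10 with library size alone, 0.19 with the offsets, 0.18 with the replicate block and offsets, and 0.071 to 0.16 without 1 library. Between BV+ and BV− cells at NRF1 OE (-0.19) it was -0.23 with upper-quartile factors, -0.16 with only the groups compared, -0.29 with the offsets, -0.27 with the replicate block and offsets, and -0.24 to -0.14 without 1 library. The median difference of the NRF1 OE effects (-0.09) was -0.13 with upper-quartile factors, -0.13 with the offsets, -0.14 with the replicate block and offsets, and -0.13 to -0.044 without 1 library. The median over all genes moved too. In BV+ cells (0.036) it was -0.0032 with library size alone and 0.0021 with upper-quartile factors. In BV− cells (0.0092) it was -0.029 with library size alone and -0.0040 with the offsets. For BV+ against BV− at NRF1 OE (-0.0049) it was -0.041 with upper-quartile factors, -0.088 with offsets and -0.082 with the replicate block and offsets. For the difference of the effects (0.019) these fits gave -0.027, -0.036 and -0.030.

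Of the 41 genes, 19 had the other sign in at least 1 fit for NRF1 OE in BV+ cells, 13 for NRF1 OE in BV− cells, 11 for BV+ against BV− cells under NRF1 OE and 10 under Ctrl, and Orc3 was the only one of them called as reported. Among the comparisons that the rule for named genes picked, the sign turned in Cdt1 in BV+ cells (-0.14 with the offsets and -0.14 with the replicate block and offsets), in Lig1 in BV+ cells (-0.048 and -0.049), and with the replicate block and offsets in Orc3 (0.029) and Rrm2 (0.035) in BV− cells. Of their other values, 208 kept direction and side of the threshold, 93 lost the call and 13 gained it, and with 1 library left out 158, 123 and 7 did. Libraries of the same number did not deviate together throughout: the correlation over 16903 genes was -0.03 between the BV+ groups, 0.20 and 0.24 between the BV− groups, -0.10 between the Ctrl groups, and -0.14 and -0.30 between the NRF1 OE groups. The numbers were therefore taken as names only, and the block with BV+ Ctrl numbers crossed, chosen after seeing the data, called 0 of the 41 and 89 of all genes between BV+ and BV− cells at Ctrl by edgeR. At these depths the spread between libraries, not counting error, limits the comparisons.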
